A study of Mus musculus with 16 samples.

Results

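The set described here is 40 genes of cell cycle and proliferation, taken by symbol from a list. No measured value entered that rule, but the list was chosen with earlier results of these data known. All 40 were among the 24420 gene rows of each of the deposited mouse expression tables, and each had reads in both tables. They were divided by role into 15 S phase genes (Pcna, Mcm2 to Mcm7, Tyms, Rrm1, Rrm2, Tk1, Hells, Uhrf1, Gmnn and Cdt1), 19 genes of G2 and mitosis, called mitosis genes below (Mki67, Top2a, Ccnb1, Ccnb2, Ccna2, Cdk1, Cdc20, Bub1, Bub1b, Plk1, Aurka, Aurkb, Birc5, Kif11, Kif20a, Nusap1, Ube2c, Cenpa and Cenpf), and 6 genes of G1 and other roles (Ccnd1, Ccnd2, Ccne1, Cdk2, Cdk4 and Stmn1). The study sequenced 3' tags of total RNA from 16 samples of mice of the strain given as C57B6. Primary enterocytes, the absorptive cells that line the intestine, came from 4 WT and 5 Mfge8 null samples. Mfge8 encodes a secreted protein that bridges phosphatidylserine on membranes and integrins on other cells. Small intestinal tissue came from 4 WT and 3 Cd36 null samples (genotype label Cd36 KO), Cd36 being a membrane receptor for long-chain fatty acids. The labels used here give no age, sex, diet or treatment for any group, and neither the design of the null alleles nor whether each sample was 1 mouse was stated, so a p-value below measures the spread between these samples.

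In the intestine, cells divide in the crypts: stem cells at the crypt base feed a pool of transit-amplifying cells, and their daughters leave the cycle as they move onto the villus. Before a cell copies its DNA, Cdt1 loads the Mcm2 to Mcm7 helicase onto origins and geminin (Gmnn) blocks Cdt1 afterwards, so that each origin fires once; the E2F factors drive most genes of this phase. Genes of G2 and mitosis, among them the cyclin B and Cdk1 kinase, the spindle checkpoint and the chromosomal passenger complex, are read out later through promoters that carry CCAAT boxes and a cell cycle genes homology region (CHR), bound by the DREAM and MuvB complexes. Proliferating cells of any type carry these transcripts, lymphocytes included.

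Values below are normalised reads, in which 1 sequenced read was worth close to 1 unit. Because each transcript is tagged near its 3' end, levels of different genes needed no length correction. Tag capture still differs between genes, so levels and sums of different genes are only described. The library totals were 1618369 to 2459812 reads in enterocytes and 850297 to 1000694 reads in small intestine. Mfge8 was at 7.94 to 23.4 in WT enterocytes and at 1.64 to 7.495 in Mfge8 null enterocytes, with no overlap (log2 difference -1.87, SE 0.46, limma adjusted p = 0.036). Cd36 was at 111 to 116 in WT small intestine and at 6.48 to 15.98 in Cd36 null small intestine; as the deleted parts were not given, tags that remain cannot check the alleles further. The 7 small intestine libraries stood apart in another way: libraries of 1 genotype agreed at about sampling noise (chi-square per degree of freedom 0.987 to 1.12 over 9 pairs), against 6.26 to 20.2 over the 16 same-genotype pairs of enterocyte libraries. Of the 9 pairs, 5 differed by slightly more than sampling noise (chi-square p under 0.05, the smallest 2.4e-12 for null 2 against null 3), and pairs of different genotype were at 2.14 to 2.28. Each genotype of the small intestine was therefore counted as 1 sample: the comparison has no replicate check and no test, and its intervals cover counting error only. Smooth muscle markers (Acta2, Myh11, Des and Tagln) summed to 0 to 1.04 in WT and 2.13 to 2.78 in Cd36 null libraries, so the muscle of a whole intestinal wall was close to absent from libraries labelled as intestine. Of the 3 endothelial markers, Cdh5 and Kdr were at 0 there. The sum of the 3 was 1.03 to 7.18 in WT and 3.19 to 4.52 in Cd36 null libraries. In enterocytes 1 of 8 stem cell markers, Olfm4, was at 0 in every library. The 8 summed to 110 to 133 in WT and 99.2 to 147 in Mfge8 null enterocytes. Libraries labelled as enterocytes also held many goblet cell transcripts. In WT enterocytes 4 goblet cell markers (Muc2, Tff3, Clca1 and Zg16) summed to 46671 to 77710, beside 32703 to 53783 for 8 villus enterocyte markers. In WT small intestine, normalised separately, these sums were 6465 to 6757 and 20397 to 20920. In the GENCODE annotation of GRCm38, 12 of the 40 genes share exon bases with a gene on the other strand (among them Tk1, Ccna2, Plk1, Ube2c, Ccnd1, Ccnd2 and Cdk4), and whether the counting used strand was not given in the sources used here.

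Promoter letters were compared between the 2 phases, and 4 promoters of genes the comparisons turn on are shown so that the matches can be seen. A RefSeq window from 250 bases before to 50 bases after the gene start (build GRCm38.p6) was matched for 13 S phase, 16 mitosis and 3 G1 or other genes. Capitals mark the E2F letters searched (TTTCCCGC, TTTCGCGC, TTTGCCGC or TTTGGCGC), the CHR letters (TTTGAA or TTCGAA) and CCAAT, each on either strand, and matches may overlap. Mcm6, a helicase subunit, lies on the minus strand (window chr1:128359656-128359955). Plk1, a mitotic kinase, lies on the plus strand (chr7:122159185-122159484). Kif11, the kinesin that pushes spindle poles apart, also lies on the plus strand (chr19:37376132-37376431), and Top2a, the topoisomerase that untangles sister chromatids, on the minus strand (chr11:99024140-99024439).
Mcm6: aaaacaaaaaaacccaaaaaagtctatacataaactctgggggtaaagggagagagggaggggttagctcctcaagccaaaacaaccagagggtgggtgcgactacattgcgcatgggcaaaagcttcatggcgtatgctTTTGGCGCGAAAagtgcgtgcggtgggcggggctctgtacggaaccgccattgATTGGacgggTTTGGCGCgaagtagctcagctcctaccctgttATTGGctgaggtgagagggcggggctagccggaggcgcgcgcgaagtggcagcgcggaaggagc
Plk1: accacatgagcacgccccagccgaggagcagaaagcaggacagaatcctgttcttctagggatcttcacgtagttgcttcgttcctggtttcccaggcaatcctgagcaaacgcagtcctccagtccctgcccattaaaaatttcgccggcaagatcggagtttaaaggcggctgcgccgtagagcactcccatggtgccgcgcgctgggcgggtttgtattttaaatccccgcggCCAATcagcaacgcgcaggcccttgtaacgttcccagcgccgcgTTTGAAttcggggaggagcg
Kif11: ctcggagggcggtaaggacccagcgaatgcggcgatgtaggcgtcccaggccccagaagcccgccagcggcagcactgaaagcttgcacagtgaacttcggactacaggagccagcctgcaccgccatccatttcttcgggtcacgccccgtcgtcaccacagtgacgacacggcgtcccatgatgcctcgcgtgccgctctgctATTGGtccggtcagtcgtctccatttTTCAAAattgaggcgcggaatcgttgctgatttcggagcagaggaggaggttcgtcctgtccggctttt
Top2a: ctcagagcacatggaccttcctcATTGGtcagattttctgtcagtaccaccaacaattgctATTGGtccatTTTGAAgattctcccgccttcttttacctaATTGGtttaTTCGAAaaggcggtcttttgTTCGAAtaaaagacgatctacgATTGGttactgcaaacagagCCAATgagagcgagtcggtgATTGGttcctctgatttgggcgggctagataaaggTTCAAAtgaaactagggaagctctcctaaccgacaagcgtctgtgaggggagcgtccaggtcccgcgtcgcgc
The Mcm6 window held 3 E2F matches, a pair of which overlap, and no CHR match. Plk1 and Kif11 each held 1 CHR and 1 CCAAT match, and Top2a held 4 CHR and 6 CCAAT matches. Over the windows matched, E2F letters were in 7 of 13 S phase genes (53.8%) and 1 of 16 mitosis genes (6.25%), against 2.60% of all 27025 genes with a window. The mitosis gene with E2F letters was Cdk1. CHR letters were in 2 of 13 S phase genes (15.4%) and 13 of 16 mitosis genes (81.2%), against 21.7% of all genes. CCAAT was in 9 of 13 and 14 of 16, against 41.1% of all genes. These are matches of letters and were not tested for binding.

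In WT libraries nearly all mitosis genes stood higher in small intestine than in isolated enterocytes. The tables were normalised separately, so levels are given here as CPM, each read count scaled to the same library total, and only described. The 40 genes together took 425 to 620 CPM in WT enterocytes and 1698 to 1779 CPM in WT small intestine. Of the 19 mitosis genes, 17 were higher in small intestine with no overlap between WT libraries, against 43.9% of the 10186 genes past the filter on low values in either table. The median ratio of means over the class was 9.57, against 1.46 over those genes. Mki67, the usual marker of cycling cells, stood at 2.03 to 4.33 CPM in enterocytes and 82.3 to 131 CPM in small intestine. Top2a stood at 7.32 to 13.1 and 172 to 211 CPM. Cdk1 and Ube2c, the ubiquitin-conjugating enzyme of the anaphase-promoting complex, were the mitosis genes whose ranges overlapped. Of the 15 S phase genes 8 were higher in small intestine, a share near that of all genes, 5 overlapped, and Gmnn and Pcna were higher in enterocytes (18.3% of all genes), with a median ratio of 3.69. Gmnn stood at 60.9 to 93.9 CPM in enterocytes and 18.5 to 23.8 in small intestine. Pcna, the sliding clamp of DNA polymerase, stood at 11.4 to 26.8 and 2.17 to 4.62 CPM. Cdt1 was level, at 31.3 to 42.8 and 29.2 to 44.7 CPM. Of the 6 G1 and other genes, 3 were higher in small intestine (Ccnd1, Ccnd2 and Cdk4) and 3 overlapped, again near the share of all genes. The RNA kit differed along with the source, and the 2 cannot be told apart.

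**Figure D1:**
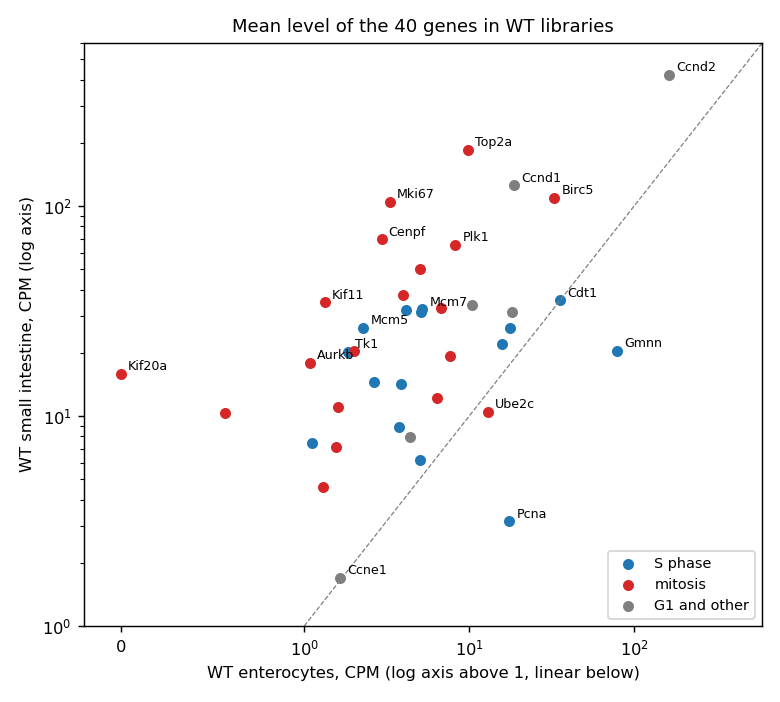
Mean level of each of the 40 genes in CPM in 4 WT enterocyte libraries (horizontal axis, logarithmic above 1 and linear below) and 4 WT small intestine libraries (vertical axis, logarithmic), coloured by class, with a dashed line of equal level. Most mitosis genes lie far above the line, Cdt1 lies on it, and Gmnn and Pcna lie below it.

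Within enterocytes the class sums were uneven too. The 15 S phase genes summed to 343 to 418 normalised reads in WT libraries, and to 124 to 187 once Gmnn and Cdt1 were left out. The 19 mitosis genes summed to 149 to 279 in the same libraries, and the D-type cyclins, with Ccnd2 first, made up most of the 293.4 to 526.2 of the last class. In WT small intestine the order turned: the mitosis genes summed to 712 to 748 and the S phase genes to 245 to 304.

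Between Mfge8 null and WT enterocytes none of the 40 genes passed the test, although most lay slightly higher in the null libraries. Of the 40 genes, 29 passed the filter on low values (at least 5 normalised reads in at least 4 libraries) and were tested: 13 S phase, 11 mitosis and 5 G1 or other genes. None was called by limma at an adjusted p under 0.05, against 3.21% of all 9432 genes tested (1.58% higher, 1.63% lower). On simulated counts the same fit called 9.72% of genes changed 1.5 fold and 48.6% of those changed 2 fold. The changed genes were drawn at random from all 9432 genes whatever their level. The rates for genes with as few reads as most members were not simulated. A gene not called may thus still differ. At an unadjusted p under 0.05 there were 5 higher (Mcm3, Mki67, Top2a, Ccnd1 and Ccnd2), against 8.52% of all genes tested, and 2 lower (Pcna and Cdt1), against 7.36%. edgeR and DESeq2 on the recovered reads also called 0 members, and each gave 7 at an unadjusted p under 0.05. Pcna, Mcm3, Mki67 and Top2a were among them in all 3 tools; Mcm4 and Mcm7 came in with both count tests, Ccnd1 dropped out in edgeR, Cdt1 in DESeq2, and Ccnd2 dropped out in both. Counted over all 40 genes, 34 log2 differences were above 0, as were 25 of the 29 tested, against 50.1% of all genes tested: 11 of 15 S phase, 18 of 19 mitosis and 5 of 6 G1 or other genes. Median differences on the log2(value + 1) scale were 0.46 for S phase, 0.54 for mitosis and 0.39 for G1 and other genes, against 0.00 over all genes tested. The differences of 1 class are not independent, since they come from the same libraries.

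Among S phase genes, members of 1 complex did not share a direction with the clamp they work with. Pcna was at 25.7, 48.9, 21.95 and 31.8 in WT 1 to 4 and 11.8, 17.5, 12.98, 16.1 and 22.1 in null 1 to 5. The null libraries were low, and only null 5 reached above the lowest WT library (32.1 ± 11.9, SD, n = 4, against 16.1 ± 4.10, n = 5; log2 difference -0.92, SE 0.28, limma adjusted p = 0.098). Counts of Pcna can share reads with its named pseudogenes Pcna-ps1 and Pcna-ps2. Mcm3, a subunit of the replicative helicase, was at 7.01, 5.20, 3.92 and 11.9 in WT 1 to 4 and 36.2, 10.96, 14.98, 10.7 and 22.1 in null 1 to 5. Null 1 and null 5 were highest and the groups overlapped at WT 4 (log2 difference 1.27, SE 0.40, adjusted p = 0.111). Mcm4, the helicase subunit with the highest level, was at 28.1, 35.4, 25.9 and 40.7 in WT 1 to 4 and 79.3, 38.4, 30.96, 52.5 and 46.7 in null 1 to 5, a log2 difference of 0.55 (SE 0.26, adjusted p = 0.316). Mcm7 was at 9.35, 8.32, 6.27 and 13.9 in WT 1 to 4 and 15.7, 17.5, 7.99, 16.1 and 27.9 in null 1 to 5, with null 5 highest (log2 difference 0.74, adjusted p = 0.326). Mcm5 had few reads, at 0, 7.28, 5.49 and 3.97 in WT 1 to 4 and 14.7, 2.19, 2.997, 4.28 and 10.7 in null 1 to 5, and its groups overlapped widely. The remaining helicase subunits, Mcm2 and Mcm6, had log2 differences of 0.40 and 0.46.

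Ribonucleotide reductase makes the deoxynucleotides for replication, and its small subunit Rrm2 was at 3.51, 9.36, 7.06 and 0 in WT 1 to 4 and 8.82, 9.87, 5.99, 4.28 and 13.1 in null 1 to 5. WT 4 had no read of it, and the other WT libraries lay within or next to the null range (log2 difference 1.01, SE 0.60, adjusted p = 0.442). The large subunit Rrm1 had a log2 difference of 0.51. The licensing pair lay the other way. Gmnn, the S phase gene with the highest level, was at 178, 156, 142 and 106 in WT 1 to 4 and 126, 156, 133, 106 and 132 in null 1 to 5. The groups overlapped almost entirely (145 ± 30.0, n = 4, against 131 ± 17.7, n = 5; log2 difference -0.14, SE 0.17, adjusted p = 0.757). Cdt1 was at 66.6, 77.98, 64.3 and 54.6 in WT 1 to 4 and 58.8, 27.4, 52.9, 53.5 and 45.1 in null 1 to 5, and null 2 was far below the rest (log2 difference -0.50, SE 0.22, adjusted p = 0.288). Hells, a chromatin remodeller, and Tyms, which makes thymidylate, had log2 differences of -0.11 and 0.20. Tk1 and Uhrf1 stayed below the filter.

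Mki67 was the only 1 of the 29 tested members whose groups did not overlap. That share is near the 3.35% of all genes tested that were higher without overlap. It was at 8.18, 7.28, 3.92 and 4.96 in WT 1 to 4 and 15.7, 13.2, 8.99, 10.7 and 16.4 in null 1 to 5. Every null library lay above every WT library, at 24 reads over 4 WT and 67 over 5 null libraries (6.09 ± 1.98 against 13.0 ± 3.17; log2 difference 0.99, SE 0.35, adjusted p = 0.148). Top2a was at 14.03, 23.9, 14.1 and 19.9 in WT 1 to 4 and 55.8, 18.6, 34.96, 19.3 and 31.2 in null 1 to 5. Null 1, null 3 and null 5 exceeded all WT libraries and the other null libraries lay among them (log2 difference 0.72, SE 0.32, adjusted p = 0.276). Ccna2, the cyclin of S and G2, varied widely within each genotype, at 2.34, 17.7, 2.35 and 13.9 in WT 1 to 4 and 33.3, 3.29, 13.98, 6.42 and 22.96 in null 1 to 5. Its partner Cdk1 was at 11.7, 28.1, 5.49 and 10.9 in WT 1 to 4 and 32.3, 12.1, 28.97, 9.64 and 25.4 in null 1 to 5. For both genes WT 2 and null 1, 3 and 5 were high and WT 3 and null 2 and 4 were low, so libraries of both genotypes lay at either end. The log2 differences were 0.82 (SE 0.64) for Ccna2 and 0.66 (SE 0.44) for Cdk1.

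Birc5, survivin of the chromosomal passenger complex, had the highest level of the mitosis genes, at 51.4, 70.7, 60.4 and 59.6 in WT 1 to 4 and 93.05, 60.3, 63.9, 70.7 and 95.96 in null 1 to 5. Null 1 and null 5 stood above the other 7 libraries (log2 difference 0.32, SE 0.19, adjusted p = 0.440). Ube2c was at 28.1, 30.2, 11.8 and 24.8 in WT 1 to 4 and 35.3, 18.6, 33.96, 25.7 and 59.1 in null 1 to 5, with null 5 highest. Plk1, Aurka, Nusap1, Cenpa and Cenpf, of the spindle, its poles and the kinetochore, had log2 differences of 0.36, 0.49, 0.36, 0.59 and 0.48. The other 8 mitosis genes were below the filter, with few reads each. One of them, Aurkb, the kinase of the passenger complex, was lower in every null library than in any WT library, but on 8 reads in WT and 5 in null (3.07% of all genes tested were lower without overlap). Kif20a, a kinesin of cytokinesis, had 0 reads in the WT libraries and 6 over the null libraries.

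The D-type cyclins couple growth signals to Cdk4, and Ccnd1 and Ccnd2 were both at unadjusted p under 0.05 in limma (in edgeR neither, in DESeq2 only Ccnd1). Ccnd2 was at 205, 320.2, 263 and 402 in WT 1 to 4 and 363, 318, 435, 335 and 581 in null 1 to 5, with a log2 difference of 0.46 (SE 0.21, adjusted p = 0.290). Ccnd1 was at 21.04, 45.7, 10.98 and 56.6 in WT 1 to 4 and 67.6, 49.3, 58.9, 27.8 and 93.5 in null 1 to 5, with a log2 difference of 0.95 (SE 0.41, adjusted p = 0.258). In both genes null 5 was highest and the groups overlapped. Cdk4, their kinase, stood at 19.1 ± 7.27 in WT and 18.97 ± 2.89 in null libraries. Stmn1, a microtubule destabiliser, was at 33.9, 46.8, 26.7 and 26.8 in WT 1 to 4 and 68.6, 26.3, 52.9, 35.3 and 53.3 in null 1 to 5. Cdk2 had a log2 difference of 0.34.

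**Figure D2:**
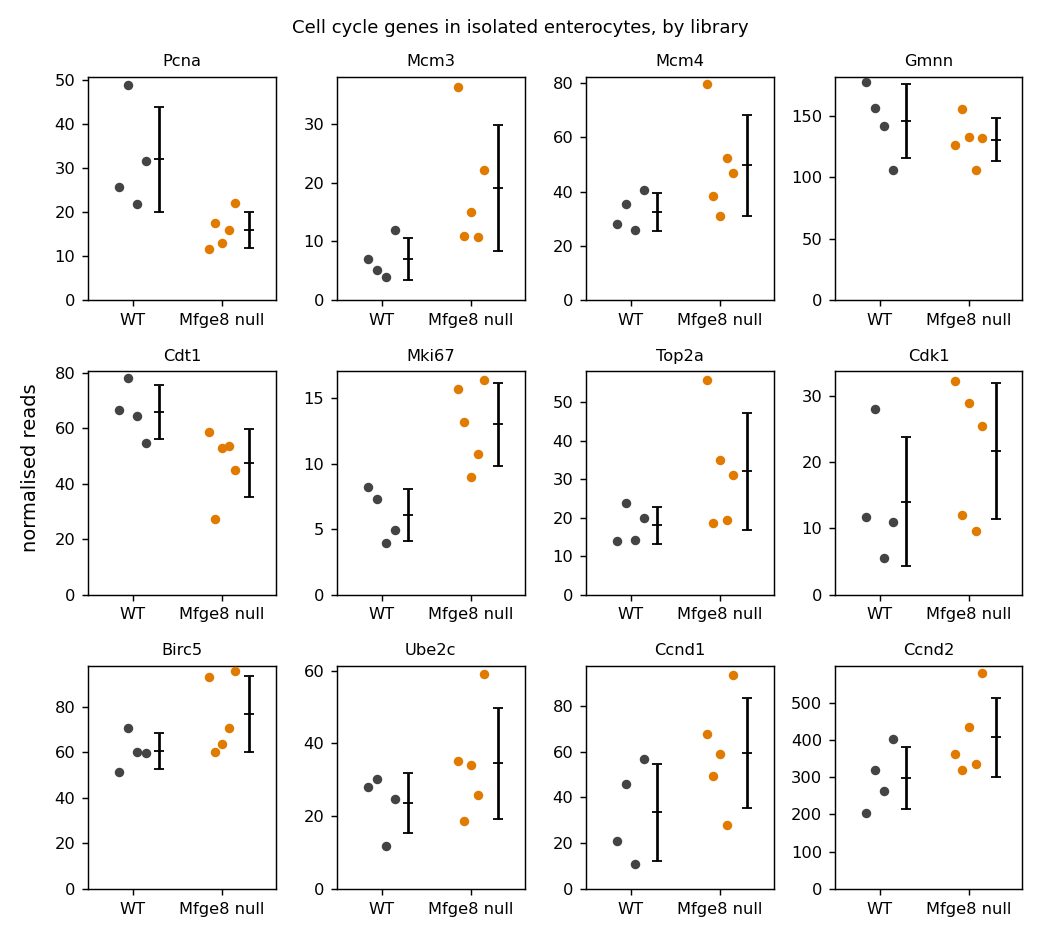
Normalised reads of 12 cell cycle genes in 4 WT and 5 Mfge8 null enterocyte libraries, 1 point per library, with the mean and SD beside each group and axes from 0. Mki67 separates the groups at a few reads, Pcna lies lower in null libraries, and null 1 and null 5, the first and last null points, are the highest in Mcm3, Mki67, Birc5, Ube2c and Ccnd1.

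The balance of S phase and mitosis genes overlapped between the genotypes in both tissues. A score per library was taken as the mean log2(value + 1) over the 15 S phase genes minus that over the 19 mitosis genes. It was 0.72, 0.64, 1.247 and 1.05 in WT 1 to 4 and 0.65, 0.83, 0.65, 0.79 and 0.97 in null 1 to 5. The means were 0.91 (SD 0.28, n = 4) and 0.78 (SD 0.13, n = 5), and the difference of -0.14 was smaller than the SD of the WT group, with overlapping ranges. As a ratio of summed reads, S phase to mitosis was 1.5 to 2.3 in WT and 1.15 to 1.76 in null libraries. The means of this ratio were 1.91 (SD 0.37) and 1.37 (SD 0.25), further apart than either SD, though the ranges overlapped. Gmnn and Cdt1, both on the lower side in null libraries, weigh heavily in this ratio. The S phase sum had means of 369 in WT and 384 in null libraries, and of 158 and 206 without Gmnn and Cdt1. The mitosis sum had means of 200 and 293. Null 1 and null 5 were highest in both class scores. In small intestine the score was -0.75, -0.72, -0.55 and -0.62 in WT 1 to 4 and -0.81, -0.71 and -0.75 in null 1 to 3. The means were -0.66 and -0.76. The difference of -0.10 was slightly larger than the SD of the WT libraries (0.092), with overlapping ranges. The sign of the score thus separated the sources of RNA in every library, and the genotypes in neither.

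**Figure D3:**
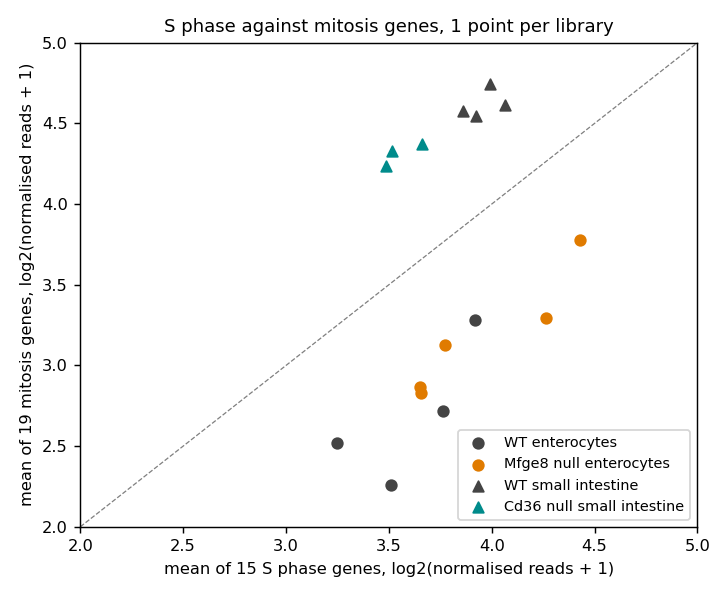
Mean log2(normalised reads + 1) of the 15 S phase genes (horizontal axis) against that of the 19 mitosis genes (vertical axis), 1 point per library for the 4 groups, with a dashed line of equality. Enterocyte libraries lie below the line and small intestine libraries above it; the Cd36 null libraries lie below and left of WT small intestine, and the enterocyte genotypes overlap.

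In the Mfge8 comparison markers of other cell types differed beside these values. The sum of 8 markers of T cells and intraepithelial lymphocytes was 1135 to 3384 in WT and 3148 to 7353 in null libraries, and all 8 had a log2 difference above 0. The sum of 5 B and plasma cell markers was 17.5 to 124 in WT and 206 to 499 in null libraries, with Cd79a at 0, 3 of 5 above 0 in log2 difference and 1 below; Jchain, of plasma cells, made up most of it, at 14.03 to 116 and 189 to 438, and was the 1 gene of the list called (limma adjusted p = 0.0033). Stem cell markers summed to 110 to 133 and 99.2 to 147, with 1 of 8, Olfm4, at 0. The 5 crypt and transit markers summed to 18.03 to 66.5 in WT and 43.9 to 64.6 in null libraries, all above 0 in log2 difference. The 8 villus enterocyte markers summed to 32703 to 53783 and 31423 to 49611. Fewer or more cells of a type and less or more RNA per cell cannot be told apart in such bulk samples, and the part of these cells in the cell cycle values was not tested. The position along the intestine also varied: 4 proximal markers summed to 1549 to 2699 in WT and 841 to 1856 in null libraries. A proximal minus ileal marker score was lowest, the most ileal, in null 5 (-2.64), null 3 (-1.60) and null 1 (-0.83), and highest in WT 1 (2.35). With that score as a covariate the S phase median difference was 0.05 and the mitosis median 0.33. Without WT 1 the S phase median was 0.20, and without WT 3 the mitosis median was 0.32.

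In the small intestine 11 cell cycle genes, of S phase and of mitosis, were lower by 1.5 fold or more in Cd36 null libraries, while Ccnd1 and Ccnd2 were level. Of the 40 genes, 38 passed the filter on low values (at least 5 normalised reads in at least 3 libraries), Pcna and Ccne1 being below it. A difference of 1.5 fold or more between genotype means, on log2(mean + 1), was seen in 11 lower genes, against 5.26% of all 9314 genes past the filter, and in 1 higher gene, Ccnb1, against 3.73%. The 11 lower genes were Mcm2, Mcm6, Rrm1, Tk1, Uhrf1 and Cdt1 of S phase and Mki67, Ccna2, Plk1, Aurka and Kif11 of mitosis. The filter could be met by libraries of 1 genotype alone. Uhrf1 was below 5 in every null library and passed only through WT libraries, so its place among the lower genes carries little weight. Over all 40 genes, 35 log2 differences were below 0 (34 of the 38 past the filter, against 50.7% of all genes): 14 of 15 S phase, 17 of 19 mitosis and 4 of 6 G1 or other genes. Their medians were -0.45, -0.41 and -0.08, against 0.00 over all genes. In 13 genes every null library lay below every WT library (7.91% of all genes), 5 of S phase (Mcm6, Rrm1, Tk1, Hells and Cdt1) and 8 of mitosis (Mki67, Top2a, Ccna2, Plk1, Aurka, Birc5, Kif11 and Cenpf). Only Ccne1, on 6 and 8 reads, lay higher without overlap (8.61% of all genes). The count past the fold was 6 without WT 3 and 7 without null 1, and without null 3 the mitosis median was -0.27.

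Among S phase genes Cdt1 was at 25.9, 28.9, 39.5 and 31.8 in WT 1 to 4 and 19.001, 20.2 and 19.4 in null 1 to 3. The ratio of null to WT from summed reads was 0.621 (95% counting interval 0.450 to 0.851). Mcm6 was at 20.2, 16.5, 21.8 and 19.5 in WT 1 to 4 and 10.9, 13.8 and 12.03 in null 1 to 3, a ratio of 0.623 (0.411 to 0.931). In both genes no null library reached the lowest WT library. Rrm1 was at 24.97, 27.9, 30.1 and 30.8 in WT 1 to 4 and 11.8, 24.5 and 18.5 in null 1 to 3; null 1 was lowest and null 2 came close to WT 1 (ratio 0.631, 0.450 to 0.878). Tk1, which salvages thymidine, was at 18.2, 17.6, 17.7 and 18.5 in WT 1 to 4 and 11.8, 7.45 and 14.8 in null 1 to 3, with the WT libraries almost equal (ratio 0.640, 0.416 to 0.969). For Mcm2, at 8.64, 5.16, 8.31 and 9.24 in WT 1 to 4 and 3.62, 5.32 and 5.55 in null 1 to 3, the groups overlapped and the interval reached past 1 (ratio 0.611, 0.306 to 1.17). The same held for Uhrf1, which maintains DNA methylation at replication forks and was at 5.76, 8.26, 8.31 and 4.10 in WT 1 to 4 and 4.52, 3.19 and 1.85 in null 1 to 3 (ratio 0.486, 0.209 to 1.04). The other helicase subunits Mcm3, Mcm4, Mcm5 and Mcm7 had ratios of 0.960, 0.837, 0.824 and 0.782. Gmnn had a ratio of 0.894 and Hells of 0.718. Rrm2 was the S phase gene on the higher side, with a ratio of 1.21 and an interval from 0.803 to 1.83. Tyms had a ratio of 0.804, on 22 and 14 reads. Pcna had 11 reads in WT and 5 in null libraries.

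Among mitosis genes the deepest counts gave the narrowest intervals. Top2a was at 187, 154, 159 and 156 in WT 1 to 4 and 119, 116 and 122 in null 1 to 3. WT 1 was highest, the null libraries were close to each other, and the ratio was 0.724 (0.635 to 0.824). Mki67 was at 72.997, 89.8, 93.5 and 116 in WT 1 to 4 and 65.1, 60.7 and 53.7 in null 1 to 3, a ratio of 0.645 (0.538 to 0.772). Plk1 was at 51.9, 54.7, 60.3 and 64.6 in WT 1 to 4 and 33.5, 39.4 and 32.4 in null 1 to 3, a ratio of 0.604 (0.476 to 0.762). For these 3 genes the whole null range lay below the WT range. Ccna2 was at 41.3, 55.8, 46.8 and 34.9 in WT 1 to 4 and 22.6, 34.1 and 25.9 in null 1 to 3; null 2 came within 1 normalised read of WT 4 (ratio 0.610, 0.465 to 0.794). Kif11 was at 29.8, 29.9, 30.1 and 33.9 in WT 1 to 4 and 17.2, 21.3 and 20.4 in null 1 to 3, a ratio of 0.631 (0.457 to 0.865). Aurka, the kinase of the spindle poles, was at 11.5, 8.26, 9.35 and 14.4 in WT 1 to 4 and 4.52, 7.45 and 7.40 in null 1 to 3, and its interval reached past 1 (ratio 0.587, 0.327 to 1.02). Birc5 and Cenpf, a kinetochore protein, had ratios of 0.735 (0.621 to 0.870) and 0.751 (0.607 to 0.927), short of 1.5 fold. Ccnb1 was the exception past the fold: it was at 3.84, 3.10, 6.23 and 3.08 in WT 1 to 4 and 7.24, 3.19 and 10.2 in null 1 to 3, on 16 and 22 reads, with overlapping groups (ratio 1.74, 0.871 to 3.54). Ccnb1 can share reads with the named pseudogene Ccnb1-ps. Its partner Cdk1 had a ratio of 1.10 (0.760 to 1.58), and Ccnb2, Cdc20 and Bub1b had ratios of 0.965, 1.01 and 0.939. The remaining mitosis genes, Bub1, Aurkb, Kif20a, Nusap1, Ube2c and Cenpa, had ratios of 0.681 to 0.902, each with an interval that reached past 1.

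**Figure D4:**
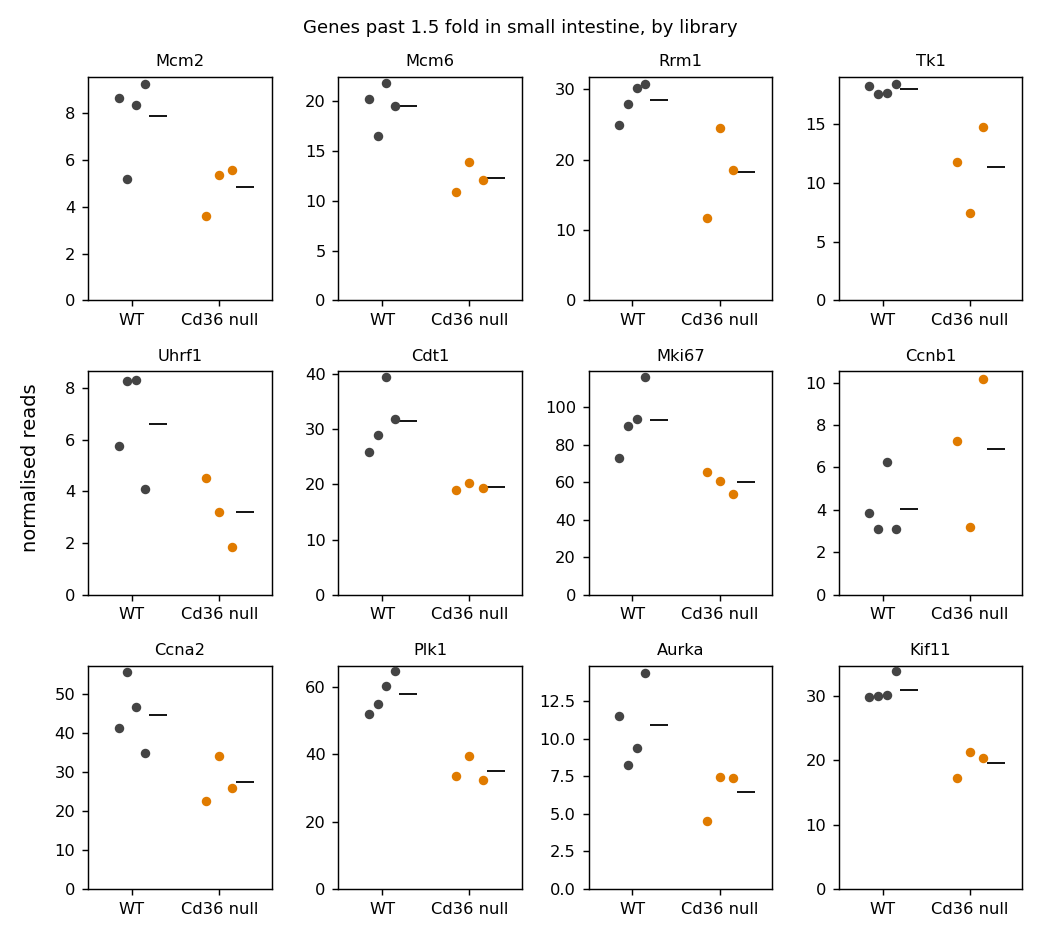
Normalised reads of the 12 genes past 1.5 fold in 4 WT and 3 Cd36 null small intestine libraries, 1 point per library, with the group mean as a dash and axes from 0. Mcm6, Rrm1, Tk1, Cdt1, Mki67, Ccna2, Plk1, Aurka and Kif11 separate the genotypes, Mcm2 and Uhrf1 overlap, and Ccnb1 lies higher in 2 null libraries.

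The G1 cyclins with deep counts showed no such difference. Ccnd1 was at 109, 117, 107 and 114 in WT 1 to 4 and 104, 127 and 109 in null 1 to 3. Ccnd2, the cell cycle gene with the highest level here, was at 395, 381, 363 and 359 in WT 1 to 4 and 372, 386 and 364 in null 1 to 3. The ratios were 1.01 (0.876 to 1.16) and 0.996 (0.921 to 1.08), and the libraries of both genotypes were mixed in order. Cdk4 and Stmn1 had ratios of 0.813 and 0.834, with intervals from 0.602 to 1.09 and from 0.611 to 1.13, and Cdk2 had a ratio of 0.857.

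**Figure D5:**
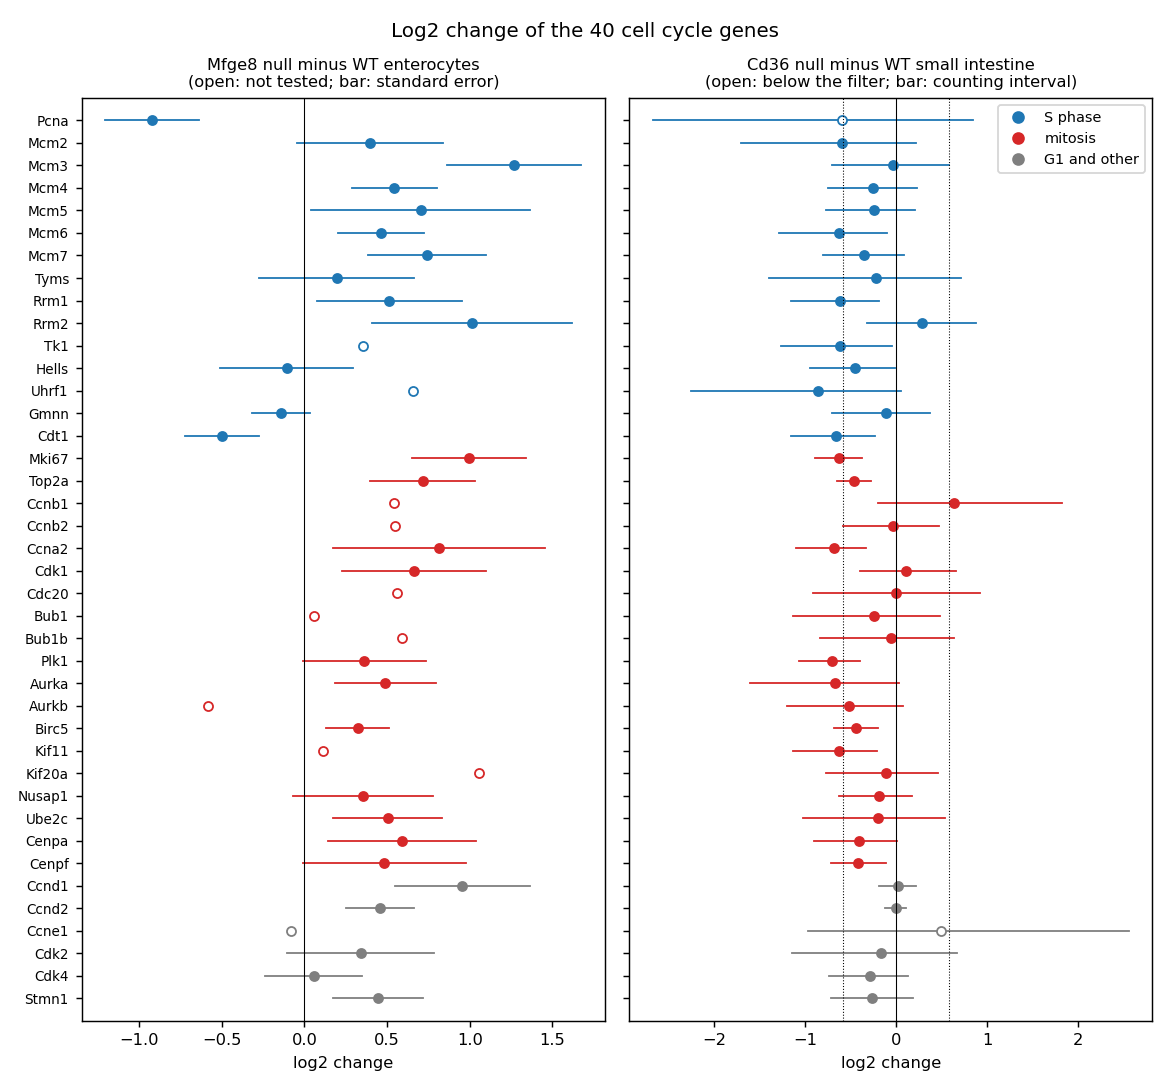
Log2 difference of null minus WT for each of the 40 genes in enterocytes (left) and small intestine (right). Values on the left are differences of mean log2(value + 1), with bars for the standard error from limma. Those on the right are differences of log2(mean + 1), with dotted lines at 1.5 fold. Bars on the right are the 95% counting interval of the ratio of summed reads without the added 1. Points lie mostly right of 0 on the left and left of 0 on the right; open points are genes below the filter on low values.

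The 2 comparisons share no samples, but their tissues, preparation and depth differ, and no test of the difference between them was made. The measures differ too: differences of mean log2(value + 1) in enterocytes and of log2(mean + 1) in small intestine. The added 1 shrinks differences of low genes more. Values side by side for Mki67 were a log2 difference of 0.99 in enterocytes and -0.63 in small intestine. For Top2a they were 0.72 and -0.46. Cdt1 lay lower in both, at -0.50 and -0.66.

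Wider lists of cell cycle genes held none of the 40. In enterocytes 1 of 18 tested genes of the wider mitosis list was called higher and none lower, 0 of 16 of the wider S phase list, and 2 of 17 genes of cell cycle inhibitors and exit, both higher, against 1.58% of all genes tested called higher and 1.63% lower. The called mitosis gene was Tubb4b, a beta-tubulin, at 63.1, 43.7, 83.1 and 64.5 in WT 1 to 4 and 90.1, 90.98, 119.9, 128 and 107 in null 1 to 5 (log2 difference 0.77, SE 0.20, limma adjusted p = 0.043). Cdkn1a, which encodes the cyclin-dependent kinase inhibitor p21, was at 496, 560.4, 702 and 663 in WT 1 to 4 and 816, 864, 1195, 919.8 and 1064 in null 1 to 5 (log2 difference 0.68, SE 0.16, adjusted p = 0.025). Ccng2, an atypical cyclin of cells that leave the cycle, was at 329.7, 530.3, 431 and 428 in WT 1 to 4 and 750.3, 614, 645, 633 and 591 in null 1 to 5 (log2 difference 0.60, SE 0.15, adjusted p = 0.039). In these 3 genes every null library lay above every WT library (3.35% of all genes tested). Cdkn1a missed the threshold without WT 1, WT 2, null 3 or null 5 (limma adjusted p = 0.058 to 0.109). The calls of Tubb4b and Ccng2 were each lost on leaving out any of 7 of the 9 libraries. Over all 23 alternative runs, other processing settings included, the call did not hold in 6 for Cdkn1a, 11 for Tubb4b and 13 for Ccng2. The medians over the tested genes of the wider S phase, wider mitosis and inhibitor lists were 0.10, 0.17 and 0.10; over all their genes, those below the filter included, they were 0.11, 0.47 and 0.03. In the wider S phase list Fen1 and Lig1, the flap nuclease and ligase of lagging strands, had log2 differences of 1.13 and 0.66 that did not pass (adjusted p = 0.143 and 0.164).

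In small intestine 8 of 31 wider mitosis genes were lower by 1.5 fold or more and 1 was higher (Cdc25b, the phosphatase that activates Cdk1), and 1 of 20 wider S phase genes was lower and 0 higher. Of all genes past the filter, 5.26% were lower and 3.73% higher by that fold. The lower mitosis genes were Cdca3, Cdca8, Prc1, Hmmr, Anln, Cks2, Ccnf and Hmgb2. Prc1, which bundles the central spindle, was at 45.1, 36.1, 48.8 and 38.99 in WT 1 to 4 and 28.95, 25.6 and 14.8 in null 1 to 3. Cdca8, borealin of the passenger complex, was at 20.2, 15.5, 19.7 and 22.6 in WT 1 to 4 and 11.8, 12.8 and 8.33 in null 1 to 3, and in both genes all null libraries lay below all WT libraries. The lower S phase gene was Gins3, a subunit of the active helicase, at 6.72, 6.20, 14.5 and 11.3 in WT 1 to 4 and 3.62, 4.26 and 4.63 in null 1 to 3. With every null library below 5, Gins3 passed the filter through WT libraries alone. Of 19 inhibitor and exit genes, 2 were higher and none lower: Cdkn1c, which encodes the inhibitor p57 and went from a mean of 4.05 to 10.6, and Ccnd3, a D-type cyclin and no inhibitor, from 12.2 to 19.03. Cdkn1a was at 1003, 1028, 1031 and 1066 in WT 1 to 4 and 1080.3, 1067 and 1091 in null 1 to 3. Its null libraries lay just above its WT libraries (ratio 1.05, with a counting interval that reached 1.10 at its upper end and a ratio of 1 at its lower; 8.61% of all genes were higher without overlap). The medians of the wider S phase, wider mitosis and inhibitor lists were -0.17, -0.32 and 0.06.

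Markers of crypt and other cells differed beside these values in small intestine. The 8 stem cell markers summed to 245 to 266 in WT and 174 to 231 in Cd36 null libraries, all 8 below 0 in log2 difference and none at 0 reads. The 5 crypt and transit markers summed to 137 to 154 in WT and 180.0 to 203 in null libraries, with 2 of 5 above 0 and Sox9 the one past 1.5 fold. T cell and intraepithelial lymphocyte markers summed to 663 to 848 and 569 to 594, with 8 of 8 below 0. The 5 fibroblast markers summed to 19.2 to 33.3 and 9.05 to 11.7, the 3 tuft cell markers to 47.8 to 50.3 and 93.4 to 113, and the 4 ileal markers to 976 to 1041 and 669 to 722. Paneth cell markers, also of the crypt, summed to 460 to 483 and 386 to 417. Goblet cell markers summed to 6465 to 6757 and 7772 to 7923, and enteroendocrine markers to 180 to 202 and 236 to 254. The 8 villus enterocyte markers summed to 20397 to 20920 and 22749 to 23667. The part of these cells in the cell cycle values was not tested.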

How the data were processed

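Total RNA of 4 WT and 5 Mfge8 null enterocyte samples and of 4 WT and 3 Cd36 null small intestine samples was sequenced as QuantSeq 3' tags with single-end reads, per the labels' protocols. The submitters' processing notes name Trimmomatic 0.38.1, HISAT2 2.1.0, HTSeq 0.91, DESeq2 2.11.40 and build mm10; the use of molecular identifiers and of strand was not given in the sources used here. The authors deposited 1 table per comparison of signal values, which are gene counts divided by library size factors. Each value was a whole multiple of 1 read within a tolerance of 1e-06, so reads were recovered; totals were 1618369 to 2459812 and 850297 to 1000694 reads, and 1 read is the smallest step.

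Enterocytes were tested with limma 3.58.1 (R 4.3.3, trend, log2(value + 1), 2-sided) over 9432 genes with at least 5 in at least 4 libraries, with Benjamini-Hochberg adjustment at 0.05. edgeR 4.0.16 and DESeq2 1.42.0 on recovered reads were alternatives. Small intestine genotypes were compared as 1 sample each, with a 1.5 fold rule over 9314 genes and exact 95% intervals of the ratio of summed reads. Fold differences of low genes are understated on this scale. Genes printed per library were those called or past the fold, the 3 highest of each class, the 10 largest enterocyte differences and the usual markers; wider lists gave their called genes. Other settings tried were the pseudocount, filter, scaling, single libraries left out, replicate block and a regional covariate. Members and lists were chosen with earlier results of these data known. The limma fit was tested on simulated counts, with the changed genes drawn at random from all genes tested whatever their level. It called 9.72% of genes changed 1.5 fold, 48.6% of those changed 2 fold and 87.9% of those changed 4 fold. Of its 94 calls 2 were false.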

Additional observations from a re-analysis of the deposited data

Results flagged for a closer look

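In 3 of 90 groups of 4 or 5 library values looked at, 1 library stood far from the others by Dixon's criterion, which chance alone meets in about 1 of 20 groups. Mcm2 in WT enterocytes was at 14.9 in WT 4, against 3.51 to 4.70 in the other 3 libraries. Top2a in WT small intestine was at 187 in WT 1, against 153.8 to 159 in the others. Kif11 in WT small intestine was at 33.9 in WT 4, against 29.8 to 30.1.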

How the results depend on the processing

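None of the 40 genes was called in enterocytes under any alternative run, edgeR and DESeq2 included. The S phase median reversed to -0.14 with a filter of at least 20, which left 5 of its genes, and was 0.046 with the regional score as a covariate, where 143 genes in all were called. Leaving out 1 library gave 140 to 388 genes called in all, S phase medians of 0.20 to 0.62 and mitosis medians of 0.32 to 0.70. Scaled to library totals, the 303 calls of 149 higher and 154 lower became 111 higher and 214 lower, the median of all genes shifted by -0.09, and 33 of the 40 cell cycle genes were above 0. In small intestine that scaling put 36 of 40 below 0. The genes past the fold there were 12 of the 40 and 837 in all; these became 3 and 402 with a pseudocount of 5 (S phase median -0.30), 6 and 259 with a filter of at least 20, and 19 and 2358 at the lower fold limit. Without a filter 2331 genes in all were past the fold. Leaving out 1 library gave 6 to 12 of the 40, S phase medians of -0.52 to -0.32 and mitosis medians of -0.43 to -0.27. Taking the libraries as replicates in limma called 8 of the 40, all lower, and 699 of 9314 genes in all (392 higher, 307 lower). As libraries of 1 genotype agreed at about sampling noise there, these calls reflect counting error and give no replicate check.

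WT and null samples share only a number. For each gene the mean of the genotype was taken off, and the deviations left were correlated between same-numbered WT and null samples. These correlations were -0.12 to 0.21 in enterocytes, highest for WT 3 and null 3, and -0.01 to 0.00 in small intestine. With a replicate block 0 members and 232 genes were called in enterocytes, without null 5, with medians of 0.37 and 0.44. In small intestine 5 members and 655 genes were called, without WT 4, again with libraries taken as replicates and with the same limit. The cause of these shifts was not tested. The 11 enterocyte genes below the filter had at most 29 reads a group, which limits what could be seen of them.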
